A study of Rattus norvegicus with 2 samples.

Results

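Translation factors are the proteins that load ribosomes onto mRNA and move them along it. The factor genes described here are those whose symbol begins with Eif or Eef and a digit, taken from array probe sets (groups of short probes that read 1 transcript) with a single annotated rat gene. This rule found 66 of 15923 probe sets, which stand for 56 of 10411 genes, 46 initiation factor (Eif) genes and 10 elongation factor (Eef) genes. Where a gene had more than 1 probe set, the brightest was used. The rule used names only and no measured value. A further 4 probe sets were annotated to a factor gene and a second gene together and were left out, so their genes are not described.

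The RNA came from A7r5, an established smooth muscle cell line of the embryonic rat aorta. The control cells carried an adenovirus with an empty vector, and the GLUT1 cells an adenovirus with the human cDNA of the glucose transporter GLUT1. Both were infected at a multiplicity of 10 (100 particles per cell for each unit of multiplicity) for 72 hours, and both were kept in medium with 5.5 mM glucose, so the virus itself and the medium were common to both groups. RNA from 3 days was pooled within each group, and each pool was read on 1 array. There are thus 2 arrays, no replicates, and no test or p-value for any gene. The promoter that drives the transgene is not stated in the sources used, and uninfected cells were not analysed here.

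In initiation, eIF2 carries the initiator tRNA to the small ribosomal subunit, eIF3 binds that subunit, and eIF4 factors bind and unwind the capped end of the mRNA. The guanine exchange factor eIF2B recharges eIF2, and stress kinases block this exchange by phosphorylating eIF2. Elongation needs eEF1, which brings in each aminoacyl-tRNA, and eEF2, which moves the ribosome by 1 codon and is held back by its own kinase. Cap binding and elongation are both tied to nutrient supply through the kinase mTOR, which acts on eIF4E-binding proteins and on eEF2 kinase. The arrays read mRNA, so neither phosphorylation nor the rate of protein synthesis was measured.

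Markers of smooth muscle and of other cell types were read in both pools. Of 9 smooth muscle markers 8 were above the brightness filter, with Acta2, the smooth muscle actin, at 16303 in control cells and 16687 in GLUT1 cells, while Myh11, the smooth muscle myosin heavy chain, lay below it at 227 and 228. Summed over the list, the markers read 59927 and 59645. Of the endothelial markers 1 of 4 with a probe set was above the filter, of the leukocyte markers 2 of 5, of the epithelial markers 1 of 4 and of the skeletal muscle markers 1 of 5. The summed levels, negative values counted as 0, were 901 and 783 for the endothelial list, 3429 and 3086 for the leukocyte list, 6369 and 6750 for the epithelial list and 3105 and 3070 for the skeletal muscle list. Pecam1 and Ptprc, which define endothelial cells and leukocytes, read 26 and 36 and 62 and 77. Above the filter were Esam at 584 and 479, Cd14 at 1235 and 1398 and C1qb at 1352 and 1014, the last at a log2 ratio of -0.41 and -2.83 local spreads. So were the epithelial marker Krt8, at 6193 and 6500, and the skeletal muscle marker Acta1, at 2339 and 2240. Krt8 thus made up most of the epithelial sum, while Epcam, Cdh1 and Krt18 lay below the filter. The part of other cells in the factor values was not tested. Slc2a1, the rat GLUT1 gene, read 2902 and 3121, but the vector carried human sequence, so this does not check the labels. In bulk RNA, fewer cells of a type and less RNA per cell cannot be told apart.

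Of the 56 factor genes, 53 were above the brightness filter, meaning that the mean log2 intensity of both arrays reached the median of all probe sets, equal to an intensity of 507. These 53 are called measured. The remaining 3 were Eif4e3, Eef1akmt1 and Eef1akmt4. The difference between the pools is given as a log2 ratio, GLUT1 over control, in which a value of 1 is a 2-fold excess on the GLUT1 array.

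No measured factor gene differed by 2-fold in either direction, where 0.0164% of 6114 measured genes were higher by that size and 0% were lower. The median log2 ratio of the 53 genes was 0.014, with 30 above and 23 below 0, beside a median of 0.0064 over all measured genes, of which 52.2% were above and 47.8% below 0. Values ran from -0.16 for Eif2ak2 to 0.37 for Eef2k, with an SD across genes of 0.10, against 0.14 over all measured genes. A log2 ratio within 0.1 of 0 was found for 40 of the 53, or 75.5%, and for 58.5% of all measured genes. At a smaller size (log2 ratio 0.25), 2 factor genes were higher, Eef2k and Eif4ebp3, which is 3.77% of 53 beside 4.27% of all measured genes. None was lower by 0.25, beside 3.25% of all measured genes. The shares past 0.25 are near the background or rest on counts of 2 or fewer, so they are not a result about the factors.

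**Figure D1:**
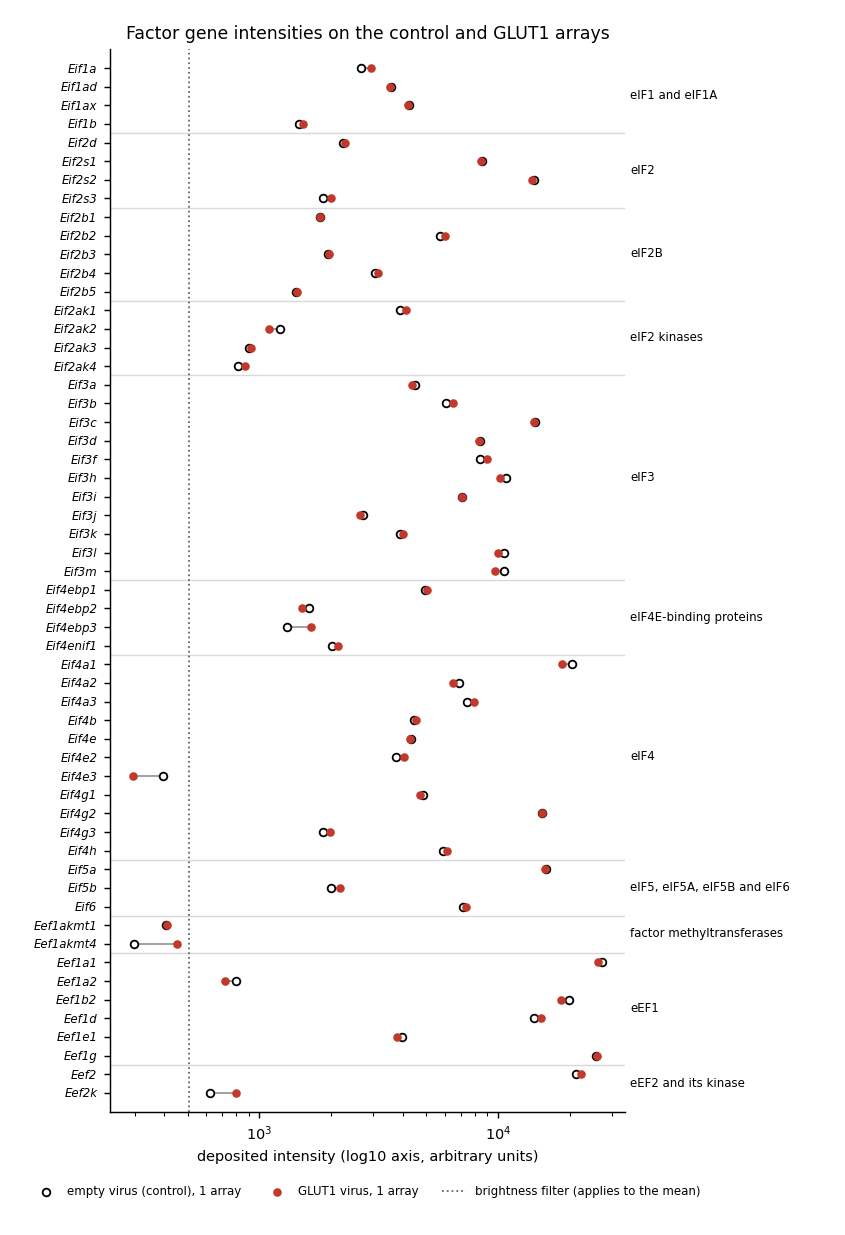
Deposited intensity (log10 axis, arbitrary units) of the 56 factor genes on the control array (open circles) and the GLUT1 array (filled circles), ordered by factor group, with 1 array per group and no error bars. Most circles lie on top of each other, and the longest connecting lines belong to Eif4ebp3, Eef2k and the genes under the dotted brightness filter, Eif4e3 and Eef1akmt4.

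Brightness matters to how these values are read. The factor genes were mostly bright, and 35 of the 53 fell in the brightest 25% of measured genes, at mean intensities from 3102 upwards. The SD of the log2 ratio over all measured genes was 0.19 in the dimmest 25% and 0.091 in the brightest 25%. Within that bright range the 35 factor genes had an SD of 0.068, and 17 of them lay above 0 and 18 below; their median log2 ratio was -0.012, beside a median of 0.0028 for all genes of that range. In the 2 dimmest ranges the few factor genes had the wider spread, with an SD of 0.22 over 4 genes beside 0.19 for all genes, and of 0.19 over 5 genes beside 0.15. The 4 genes included Eef2k (log2 ratio 0.37) and the 5 included Eif4ebp3 (0.35), the 2 highest measured factor genes, so each SD leans on 1 gene. The 9 factor genes of the next range down, at mean intensities from 1608 to 3101, had a median of 0.082, with 7 above and 2 below 0, where all genes had 0.0075. To set each gene against its own brightness, its ratio was also expressed in local spreads, the scaled median absolute deviation of the 500 measured probe sets nearest in brightness. By this measure 2 factor genes, 3.77%, were 2 or more local spreads higher, beside 3.06% of all measured genes, and 0 were as much lower, beside 2.62%. They were again Eif4ebp3, at 2.67, and Eef2k, at 2.13.

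**Figure D2:**
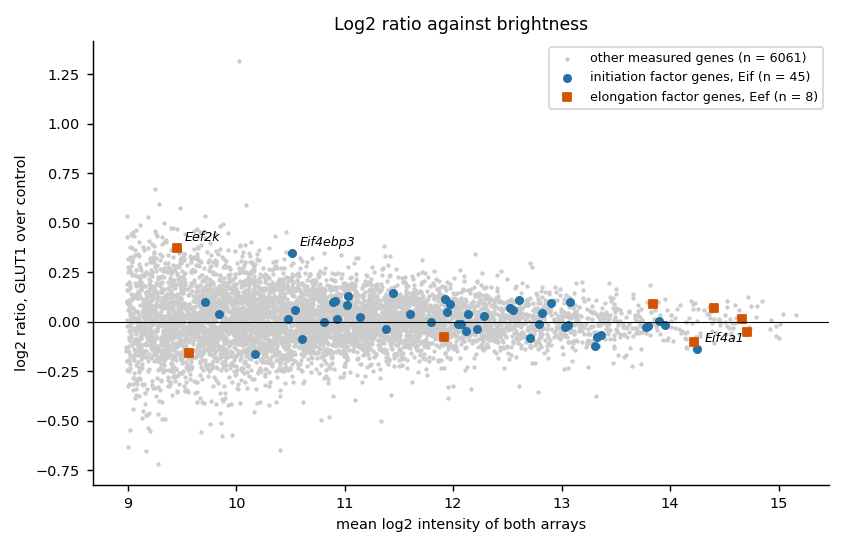
Log2 ratio (GLUT1 over control) against mean log2 intensity of both arrays for 45 initiation factor genes, 8 elongation factor genes and all other measured genes, each point 1 gene. The cloud of other genes narrows from left to right, the bright factor genes stay within it near 0, and Eef2k and Eif4ebp3 lie at its upper edge in the dimmer range; Eif4a1 is named as a bright gene below 0.

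The scanning factors eIF1 and eIF1A help the small subunit find the start codon. Eif1a was read at 2657 in control cells and 2939 in GLUT1 cells (log2 ratio 0.15, or 1.31 local spreads), the highest of its group. Its paralog Eif1ax was nearly level, at 4240 and 4202 (-0.012). These paralogs are close in sequence, and how far their probes share transcripts was not tested. Eif1b, a close relative of eIF1, was read at 1460 and 1517 (0.057), and Eif1ad, a protein with an eIF1A-like domain, at 3545 and 3542. The 4 genes had a median log2 ratio of 0.028.

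The trimer eIF2 was close to level in all its subunits. Eif2s1 encodes the alpha subunit, the target of the stress kinases, and was read at 8602 in control cells and 8487 in GLUT1 cells (log2 ratio -0.018). Eif2s2, the beta subunit, gave 14133 and 13877 (-0.025, or 0.0046 after quantile normalization). Eif2s3, the GTP-binding gamma subunit, gave 1856 and 1990 (log2 ratio 0.10, or 0.914 local spreads). Eif2d, a separate protein that can deliver tRNA without eIF2, was read at 2242 and 2279 (0.025). With 2 genes above and 2 below 0, the group median was 0.0034.

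All 5 subunits of eIF2B were measured and all lay within 0.1 of 0. The regulatory subunits, which sense phosphorylated eIF2, read 1792 and 1787 for Eif2b1 (log2 ratio -0.0027), 5735 and 6010 for Eif2b2 (0.069) and 3064 and 3139 for Eif2b4 (0.036). The catalytic side read 1947 and 1962 for Eif2b3 (0.012) and 1422 and 1435 for Eif2b5 (0.014), the subunit with the exchange activity. Their median was 0.014, and the range from -0.0027 to 0.069 was narrower than the local spread of any of the 5 genes, 0.094 to 0.13. A second probe set of Eif2b5, below the brightness filter, read 381 and 545 (log2 ratio 0.52), so the closeness of the 5 subunits holds for the brightest probe set of each; averaging both readings of Eif2b5 gave 0.27.

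Each of the 4 eIF2 kinases answers a different stress. Eif2ak2 encodes PKR, which senses double-stranded RNA and is induced by interferon, and was read at 1224 in control cells and 1093 in GLUT1 cells. Its log2 ratio of -0.16 was the lowest of all measured factor genes, next to Eef1a2, and stood at -1.1 local spreads. Eif2ak3, encoding the endoplasmic reticulum kinase PERK, gave 902 and 926 (0.039). Eif2ak4, encoding GCN2, the sensor of uncharged tRNA, gave 811 and 869 (0.10). The heme-regulated kinase gene Eif2ak1 was read at 3885 and 4135 (0.091), while its second measured probe set gave 3383 and 3263 (-0.051), so its direction is not settled. The group median was 0.065, with 3 genes above and 1 below 0. It fell to 0.030 when the measured probe sets of each gene were averaged.

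The 11 subunits of eIF3 that could be read leaned below 0, 8 of them lying below it, at a median log2 ratio of -0.025, where 47.8% of all measured genes were below 0. Quantile normalization put Eif3c at 0.0023 and left 7 of the 11 below 0. None reached 2 local spreads. Eif3m, a subunit of the PCI/MPN core, was read at 10614 in control cells and 9725 in GLUT1 cells (log2 ratio -0.12, or -1.47 local spreads), the farthest from 0 in the complex. The other core subunits below 0 were Eif3l at 10584 and 10022 (-0.077), Eif3h at 10763 and 10243 (-0.070), Eif3a, the largest scaffold subunit, at 4507 and 4363 (-0.046) and Eif3c at 14330 and 14106 (-0.021). Against them stood the core subunits Eif3f, at 8376 and 8951 (0.097), and Eif3k, at 3881 and 4008 (0.048).

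Outside the core, Eif3b, which organises the mobile module of eIF3, was read at 6026 and 6496 (log2 ratio 0.11), the highest of the complex. Its partner Eif3i gave 7096 and 7033 (-0.012). Eif3d, a subunit that can itself bind the cap, gave 8439 and 8287 (-0.025), and the loosely attached Eif3j 2710 and 2636 (-0.039). The subunits of the complex thus did not share 1 direction, and the range from -0.12 to 0.11 held 9 of 11 genes within 0.1 of 0.

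**Figure D3:**
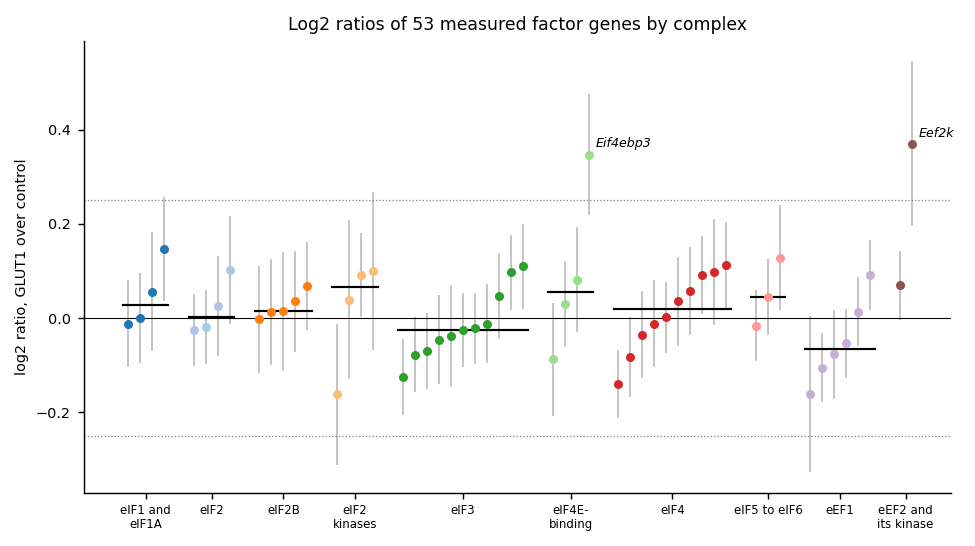
Log2 ratio (GLUT1 over control) of the 53 measured factor genes, sorted within each factor group; each dot is 1 gene from 1 array per group, grey bars are plus and minus 1 local spread (not a replicate error), black lines are medians of groups with at least 3 genes, and dotted lines mark 0.25 and -0.25. The medians run from -0.065 for eEF1 to 0.065 for the eIF2 kinases, and only Eif4ebp3 and Eef2k lie above the upper dotted line.

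Cap-binding and helicase genes of the eIF4 group were measured in 10 of 11 cases, 6 of them above and 4 below 0, and the median log2 ratio came to 0.019. Eif4e, the cap-binding protein, was read at 4333 in control cells and 4294 in GLUT1 cells (-0.012). Eif4e2, which encodes 4EHP, a cap-binding protein that represses translation, gave 3734 and 4034 (log2 ratio 0.11, or 1.27 local spreads). Eif4e3 was dim at 394 and 296 (log2 ratio -0.41) below the filter.

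Of the helicase paralogs, Eif4a1 and Eif4a2 lay below 0 and Eif4a3 above 0. Eif4a1, the main RNA helicase of initiation, was read at 20459 and 18552 (log2 ratio -0.14). This was -1.86 local spreads, the lowest value of any measured factor gene on that scale, with a local spread of 0.073 at that brightness. Eif4a2 gave 6893 and 6502 (-0.083). Eif4a3, which works in the exon junction complex rather than in cap-dependent initiation, gave 7428 and 7909 (0.092). The helicase cofactors were read at 4435 and 4543 for Eif4b (0.036) and 5902 and 6138 for Eif4h (0.058), and both probe sets of Eif4b were above 0.

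Among the eIF4G scaffolds, which join the cap-binding protein to the helicase, Eif4g1 was read at 4835 and 4714 (-0.035) and Eif4g3 at 1840 and 1967 (0.098). Eif4g2, also called DAP5, lacks the binding site for eIF4E and was level at 15288 and 15290 (0.0015). Its second measured probe set, dimmer at 1413 and 1408, was as level (-0.0038).

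The proteins that hold eIF4E back were read in 4 genes, with a median log2 ratio of 0.056. Eif4ebp1, encoding the best known mTOR target of the group, was read at 4926 in control cells and 5024 in GLUT1 cells (0.030). Eif4ebp2 gave 1607 and 1511 (-0.088). Eif4ebp3 was higher on the GLUT1 array, at 1652 against 1300, an excess of 27.2% and a log2 ratio of 0.35. Eif4ebp3 was read by 1 probe set, so no second reading stands beside it. Eif4enif1, which encodes the eIF4E transporter 4E-T, gave 2018 and 2134 (0.082).

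The genes named Eif5 and Eif6 were grouped by name, and the 3 measured ones had log2 ratios from -0.016 to 0.13. Eif5b, the GTPase that joins the ribosomal subunits, was read at 1999 and 2183 (log2 ratio 0.13, or 1.13 local spreads). Eif5a, the hypusine-bearing factor that relieves ribosome stalling, gave 15957 and 15768 (-0.016). Eif6, which keeps the large subunit free, gave 7127 and 7347 (0.045). The median of the 3 was 0.045.

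In the eEF1 group, formed by gene name, the genes split, 4 falling below and 2 above 0, at a median log2 ratio of -0.065. Eef1a1, the main carrier of aminoacyl-tRNA, was read at 27251 in control cells and 26234 in GLUT1 cells (-0.054). A second measured probe set of Eef1a1 gave 26783 and 24966 (-0.10), below 0 as well; the gene has many near-identical copies in mammalian genomes, and the type of probe set that gave this second reading may bind several transcripts. Eef1a2, the isoform of muscle and neurons, was dim at 800 and 715 (log2 ratio -0.16, or -0.945 local spreads). Of the exchange subunits, Eef1b2 gave 19828 and 18420 (-0.10) and Eef1d 14200 and 15109 (0.091), so the genes of both exchange proteins differed in sign, at -1.38 and 1.31 local spreads. Eef1g, the structural subunit, was level at 25869 and 26088 (0.014), and at -0.0042 after quantile normalization, which leaves 5 of the 6 genes below 0. Eef1e1, in spite of its name a scaffold of the tRNA synthetase complex, gave 3968 and 3758 (-0.077). It counts among the 4 genes below 0 and in the group median, but is not an eEF1 subunit.

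Eef2, the translocase, was read at 21149 and 22177 (log2 ratio 0.070). Its inhibitory kinase Eef2k had the largest ratio of all measured factor genes, at 798 on the GLUT1 array against 618 in the control, an excess of 29.2% and a log2 ratio of 0.37. That probe set was among the dimmer ones, with a local spread of 0.18. Another 3 probe sets of Eef2k lay below the brightness filter, at 261 and 181, 162 and 190, and 84 and 112. The brightest of these pointed the opposite way, with a log2 ratio of -0.53, and the mean over all 4 was -0.0092, with values at or below an intensity of 175 counted as 175. The excess of Eef2k thus rests on 1 of its 4 probe sets.

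**Figure D4:**
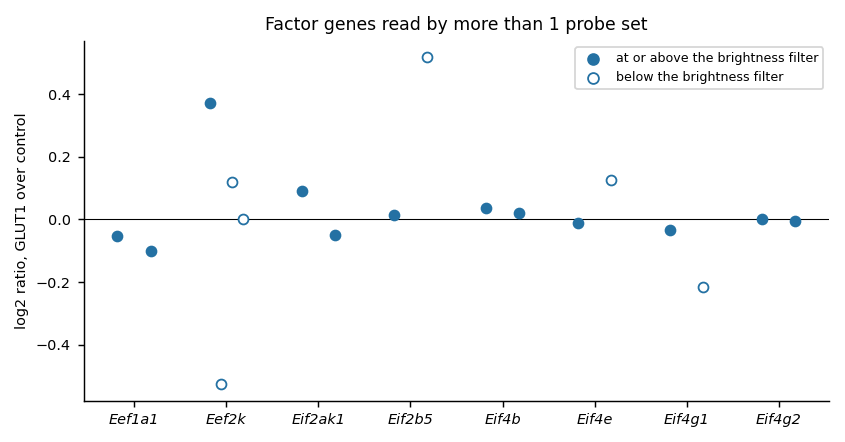
Log2 ratio (GLUT1 over control) of every probe set of the 8 factor genes read by more than 1, filled where at or above the brightness filter and open where below it; each circle is 1 probe set on 1 array per group, and intensities up to 175 are drawn as 175. The filled circles of Eef1a1, Eif4b and Eif4g2 lie close together, those of Eif2ak1 lie on both sides of 0, and the 4 circles of Eef2k spread from -0.53 to 0.37.

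The genes of the enzymes that methylate elongation factors were dim. Eef1akmt1 gave 404 and 409 (log2 ratio 0.019). Eef1akmt4 gave 299 and 450 (log2 ratio 0.59), the largest of all 56 factor genes, from a probe set below the brightness filter.

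Many mRNAs of the translation machinery begin with a 5′ terminal oligopyrimidine (TOP) tract, a C followed by a run of pyrimidines, through which mTOR controls their translation. Known TOP mRNAs with a usable probe set were Eef1a1, Eef1b2, Eef1d, Eef1g, Eef2, Eif3f, Eif3h and Eif4b. All 8 were measured, with log2 ratios from -0.10 to 0.097, a median of 0.025, and 5 above and 3 below 0. The 45 other measured factor genes had a median of 0.012, with 25 above and 20 below 0. RefSeq start sites (GRCr8) were listed for 51 of the 56 factor genes and were searched, on the gene's own strand, for a C followed by at least 4 pyrimidines. No factor gene had the tract exactly at the listed start, where 2.83% of all protein-coding genes did. It was there in 0 of 5 known TOP factor genes and in 10 of 37 ribosomal protein genes. The search at that position thus missed known TOP mRNAs, and the 0 is not a result about the factors. Within 10 bases of the listed start 18 of 51 factor genes, or 35.3%, had a tract. The share was 30.1% for all protein-coding genes and 67.6% for the ribosomal protein genes on the array. Of the known TOP factor genes 3 of 5 had one, Eef1g and Eef2 lacking it. The tracts of Eif1ad, Eif3i and Eif3k, 5 bases long, began 8 bases before the listed start and ended before it. The tract of Eef1akmt4, also 5 bases long, began 6 bases before the listed start and likewise ended before it. The shares within 10 bases count such tracts in every set of genes. The windows below run from 10 bases before the listed start to 19 after it, with the tract in capitals. They show the tracts of the 3 known TOP mRNAs in which one was found. Eif3m and Eif2s3 are added as the eIF3 gene farthest below 0 and an eIF2 gene above 0.
Eef1a1 (chr8:88225050-88225079, minus strand): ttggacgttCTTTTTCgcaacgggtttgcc
Eef1b2 (chr9:72074081-72074110, plus strand): ggccggtcccggCCCTTTTTCTCCCTCagc
Eif3f (chr1:172369052-172369081, plus strand): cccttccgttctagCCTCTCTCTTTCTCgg
Eif3m (chr3:111897174-111897203, minus strand): caccgtgtggtaccgCTCCTTTTCCggtcg
Eif2s3 (chrX:62933680-62933709, minus strand): cagccgagcattttCCTTTTCTCTCTgagc

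The tract began 1 base before the listed start in Eef1a1 and 2 to 5 bases after it in the others. These tracts were 7, 15, 14, 10 and 12 bases long in that order. The log2 ratios of the genes were -0.054, -0.10, 0.097, -0.12 and 0.10. Eif3m and Eif2s3 were chosen with their ratios known, so the signs in these windows are not a result about tracts. Over the 16 measured factor genes with a tract within 10 bases of the listed start the median log2 ratio was 0.0073, and over the 33 without one it was 0.012. The genes without one included the known TOP genes Eef1g and Eef2, so this split does not separate TOP mRNAs from the others.

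Other lists of the translation machinery also had medians near 0. For cytosolic ribosomal proteins, measured in 41 genes, the median log2 ratio was -0.0066, with 18 above and 23 below 0, led by Rpl21 at -0.23 and Rpl24 at -0.22. All 6 measured termination and recycling factors had a log2 ratio above 0, beside 52.2% of all measured genes. For Denr, equal as deposited at 1738 and 1738, the ratio of 0.0013 came from the scaling alone. The median of the 6 was 0.029, with the release factor gene Etf1 at 0.093 and Hbs1l, a ribosome rescue factor, at 0.065. Cytosolic aminoacyl-tRNA synthetases had a median of 0.024 over 21 genes, 13 above and 8 below 0. Vars1, the valyl-tRNA synthetase, lay at -0.29, read at 2041 and 1667, and Sars1, the seryl-tRNA synthetase, at 0.19. The list of mTOR and translation control genes had a median of -0.014 over 23 genes, with 11 genes above 0 and 12 below. Farthest from 0 were 2 parts of the mTOR complexes, Mlst8 at -0.26, read at 699 and 585, and the inhibitor Deptor at -0.25, read at 1980 and 1667. The highest, named after its value was seen, was Ppp1r15b, a phosphatase subunit that removes phosphate from eIF2, at 0.24, read at 1592 and 1876. Its paralog Ppp1r15a, likewise named after its value was seen, pointed the other way at -0.15, read at 1684 and 1514. Mitochondrial translation factors were measured in 3 genes, with a median of -0.060, Mrrf at -0.12 and Tufm at 0.096.

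**Figure D5:**
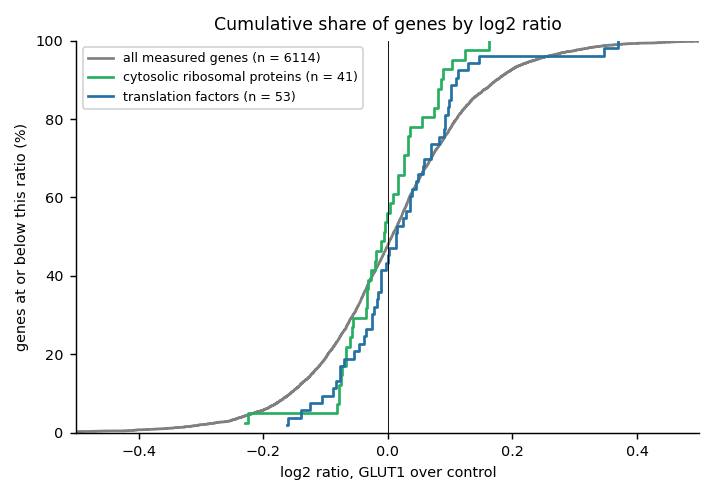
Cumulative share of genes (percent) at or below each log2 ratio (GLUT1 over control) for the 53 translation factor genes, 41 cytosolic ribosomal protein genes and all 6114 measured genes, with ratios beyond 0.5 not shown. The curves cross near 0, with medians of 0.014, -0.0066 and 0.0064, and the 2 factor genes above 0.25 form the step at the upper right.

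Probe sets of the same gene show how far 2 readings on the same arrays disagree. Errors of the pool or the array that both readings share are not seen this way. In 702 genes with at least 2 measured probe sets, the difference between the 2 brightest gave an SD of 0.13 for 1 log2 ratio. It pools genes of any measured brightness, so it does not set a gene against others of like brightness. Eif3m, at -1.47 local spreads, lay within this SD, while Eef1a2, at -0.945, lay beyond it. A log2 ratio farther than this SD from 0 was found for 6 of 53 factor genes, or 11.3%. The share was 28.1% for all measured genes, which were on the whole dimmer. The 6 were Eef2k, Eif4ebp3, Eif1a, Eif2ak2, Eef1a2 and Eif4a1. With 1 array per group no replicate error exists against which any of these could be set.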

How the data were processed

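The authors deposited 1 linear intensity per probe set and array; both arrays have the same median, 508, and the same quartiles, 175 and 1507.5, and the between-array method is not stated. Software, background correction and summary method were not given in the sources used here. Names came from the platform annotation; 12783 had 1 gene, 312 several and 2771 none, and 12748 of the 12783 gene IDs were in the current rat table (GRCr8). The GLUT1 array was raised by 0.0013 log2 units, intensities under the 25th percentile, 175, were raised to it, and genes with a mean log2 value under the median of all probe sets were set aside. Printed intensities are the deposited ones. With 1 array per group there was no test; differences were described by size (2-fold; 0.25 on the log2 scale; 2 local spreads). Every factor gene could be named, and for other lists the 2 measured genes farthest from 0. Arrays limit precision by their number. The factor genes and lists were chosen with earlier results of these data known. Steps were tested on simulated data (Python 3.11.15, numpy 2.4.6, pandas 2.3.3). Alternatives covered scaling, floor, filter, probe set choice, symbols and thresholds.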

Additional observations from a re-analysis of the deposited data

How the results depend on the processing

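No paired analysis was possible because there is only 1 array for each group. There were 12 alternative settings, 2 of them chosen after seeing the data. In the 10 settings that recomputed it, the median log2 ratio of the measured factor genes lay between 0.0015 and 0.015. No factor gene reached 2-fold. Both changes of the floor and the updated symbols moved no measured factor gene, so they say nothing about stability. At 1.5-fold, run with the main filter, 0 factor genes passed; without the filter 1 does, Eef1akmt4. The eIF3 median lay between -0.026 and -0.025 and the eEF1 median between -0.077 and -0.054. The count at a log2 ratio of 0.25 was 2 higher and 0 lower; with no brightness filter 3 were higher, Eef1akmt4 being added, and 1, Eif4e3, was lower, and with a filter at the 75th percentile 0 were higher, because that filter removes Eef2k and Eif4ebp3. That filter left fewer than 3 eIF2 kinase genes, so they have no median there. Averaging all probe sets of a gene took Eef2k to -0.0092 and Eif2b5 to 0.27. Of the 53 factor genes, 4 changed sign with quantile normalization (Eif1ad, Eif2s2, Eif3c and Eef1g), 1 without scaling, 3 with all probe sets averaged, 1 with the measured ones averaged and 1 after subtracting the median at like brightness; apart from Eef2k and Eif4e, which averaging all probe sets took to 0.057, these lie within 0.03 of 0. The deposited values already had nearly the same distribution, so the scaling alternatives moved no factor gene by more than 0.030 and say little about stability. Dim probe sets near the floor hold no reliable order.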
